A study of Mus musculus with 12 samples.

Results

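Chemokines are small secreted proteins that steer migrating cells, and the genes for them and for their receptors were examined in 4 cell populations sorted from mouse back skin. Members were all entries of the expression table whose symbol is that of a CC, CXC or CX3C ligand, of a receptor for these ligands or of an atypical receptor. The symbol patterns found 73 entries with 59 symbols among 24692 entries with 24162 symbols. They comprised 52 ligand entries, 17 receptor entries and 4 atypical receptor entries. Of the 73, 35 reached 1 FPKM in at least 3 libraries and were tested, 18 were above 0 without reaching that level, and 20 entries were listed at 0 in all 12 libraries. FPKM are fragment numbers scaled to transcript length and to the mapped fragments of a library.

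A chemokine binds a G protein coupled receptor on a responding cell, which then moves up the gradient of the ligand. Homeostatic chemokines such as Cxcl12 hold cells in their niches, while inflammatory chemokines such as Ccl2 and Cxcl1 are induced by cytokines through NF-kB and recruit monocytes or neutrophils. Atypical receptors bind chemokines without G protein signalling and take them up or transport them. In skin, dermal fibroblasts, keratinocytes, endothelial cells and resident macrophages all make chemokines.

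The 12 libraries came from male Sox2:GFP/aSMA:dsRed mice at postnatal day 26 to 27, in early anagen, the start of a hair growth phase. All 4 populations carried the same 2 reporters, a green protein linked to Sox2 and a red protein linked to smooth muscle actin, and were isolated by flow cytometry after dispase and collagenase digestion. The populations were the dermal papilla (the signalling cluster at the follicle base), the dermal sheath (the connective tissue around the follicle), the hair follicle dermal stem cells and the interfollicular dermis between follicles, with 3 libraries each. They are called papilla, sheath, stem cells and interfollicular dermis below. The sorting antibodies, the number of animals and any pooling are not given in the labels, so the p-values below measure the spread between these libraries only, and that spread may be technical. Library values are given in the order of their replicate numbers, which were 1, 2 and 4 in papilla, 1, 4 and 5 in sheath, 1, 2 and 4 in stem cells and 1, 2 and 6 in interfollicular dermis.

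The identity of the libraries was checked against marker genes. The 10 fibroblast markers summed to 18378 to 32261 FPKM in papilla, 1189.8 to 2330.0 in sheath, 13422 to 18375 in stem cells and 937 to 1968 in interfollicular dermis. The 10 sheath and smooth muscle markers summed to 191 to 487 FPKM in the libraries labelled sheath, against 2693 to 3130.1 in stem cells. The 12 papilla markers summed to 384, 681 and 2088 FPKM in papilla, 61.1 to 158 in sheath, 304 to 659 in stem cells and 171 to 287 in interfollicular dermis. Papilla replicate 1 thus lay below stem cells replicate 4, and 2 of the 12 markers were called higher in papilla than in stem cells, against 2.31% of all entries, so papilla too is the name of a label. Sheath replicate 1, whose title carries an extra letter that the labels do not explain, stood apart in immune markers, with 409 FPKM of mast cell and neutrophil markers against 10.4 and 5.04 in the other sheath libraries. Sheath and interfollicular dermis are likewise names of labels here, since these 6 libraries held little of the fibroblast markers, and what kind of cell was sorted cannot be told apart from a difference between those tissues. The total of all FPKM was 181683 to 262695 per library. The number of reads behind the values is unknown, and a relative depth read from the lowest values spanned a 3.07-fold range.

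The short stretches below lie upstream of 4 CXC ligand genes whose mean was highest in papilla, and they are shown because NF-kB is a known inducer of all 4. They were chosen after the matches were seen, and Ccl2 and Ccl7, which had higher papilla levels than Cxcl2, Cxcl3 and Cxcl10, had no window to search. Cxcl13 and Cxcl14, CXC ligands whose means were also highest in papilla, had a window but no match. The stretches were read from RefSeq start sites on GRCm38.p6, 5′ to 3′ on the strand of the gene, with every match to the NF-kB consensus in capitals.
Cxcl1: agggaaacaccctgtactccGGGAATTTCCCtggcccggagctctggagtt
Cxcl2: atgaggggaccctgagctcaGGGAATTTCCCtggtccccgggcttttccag
Cxcl3: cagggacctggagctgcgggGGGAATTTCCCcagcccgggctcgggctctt
Cxcl10: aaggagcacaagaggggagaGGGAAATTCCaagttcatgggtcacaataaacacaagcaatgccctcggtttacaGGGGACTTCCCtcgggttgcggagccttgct
The Cxcl1 stretch is chr5:90891154-90891204 (+), that of Cxcl2 chr5:90903782-90903832 (+), that of Cxcl3 chr5:90786008-90786058 (+) and that of Cxcl10 chr5:92348963-92349068 (-). In Cxcl1, Cxcl2 and Cxcl3, which are neighbouring and related genes, the capitals read GGGAATTTCCC in each, and the match began 71, 97 and 73 bases before the start site in that order. Cxcl10 had matches in 2 places, starting 159 and 104 bases before its start site. Both strands were searched, and overlapping matches were joined. At least 1 match lay within 250 bases upstream of the start in 9 of the 25 tested members with a window (36%) and in 11 of all 41 members with a window (26.83%). The share over all 27025 genes with a window was 8.233%, and over all 32851 windows 7.251%. A match describes letters only.

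Chemokine transcripts were abundant in papilla and stem cells and lower in the other populations. Ligands summed to 3142 to 4899 FPKM in papilla, 514 to 706 in sheath, 1269.6 to 6740.5 in stem cells and 471 to 657 in interfollicular dermis. This was 1.53% to 2.05% of all FPKM in papilla, 0.248% to 0.371% in sheath, 0.546% to 2.57% in stem cells and 0.223% to 0.362% in interfollicular dermis. The receptor genes summed to far less, 14.9 to 37.2 FPKM in papilla, 11.96 to 21.7 in sheath, 51.0 to 123 in stem cells and 12.7 to 25.6 in interfollicular dermis. By mean level the leading members were Ccl2, Cxcl1 and Ccl7 in papilla, Cxcl1, Cxcl14 and Cxcl10 in sheath, Ccl8, Ccl7 and Ccl2 in stem cells, and Cxcl1, Cxcl14 and Cxcl10 in interfollicular dermis. A population mean of at least 5 FPKM was reached by 26 members, and these are described by library.

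**Figure D1:**
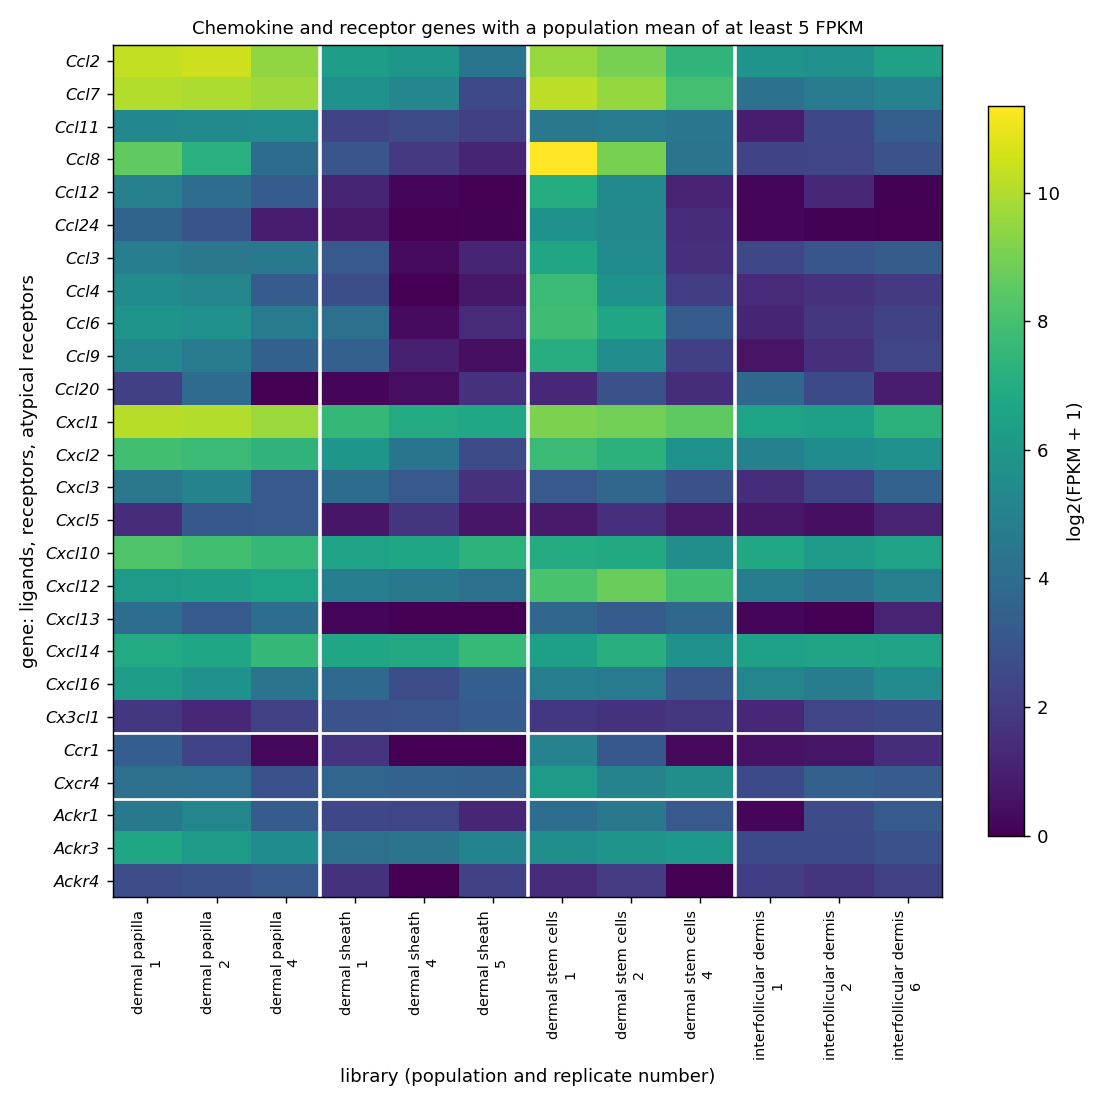
Colour gives log2(FPKM + 1) of the 26 members with a population mean of at least 5 FPKM (rows, grouped as ligands, receptors and atypical receptors) in the 12 libraries (columns, grouped by population). Ccl2, Ccl7 and Cxcl1 are bright in papilla and stem cells, and the Ccl8 to Ccl9 rows are bright in stem cells replicates 1 and 2 but not in replicate 4.

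Levels were compared between populations with limma on log2(FPKM + 1) in one fit of all 12 libraries, with p-values adjusted by the Benjamini-Hochberg method over the 12774 tested entries. A difference was called at an adjusted p under 0.05. Fold changes are on the log2(FPKM + 1) scale, as the first-named population minus the second, and understate the change of genes near 1 FPKM. By the F test 23 of the 35 tested members differed among the 4 populations, against 56.8% of all entries, so their share of 65.7% is close to the background. At least 1 of the 6 pairwise comparisons called 25 members. The share of all entries called in at least 1 comparison was not counted, so this number is not set against a background. The 10 called in none included Ccl1, Ccl5, Ccl20, Ccl25, Cxcl9, Cxcl14, Ccr1, Ccr2 and Cxcr5.

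The Cxcl12 ligand and its signalling receptor Cxcr4 were both highest in stem cells. Cxcl12 had 72.04, 81.9 and 94.7 FPKM in papilla, 27.9, 22.5 and 17.1 in sheath, 274, 426 and 237 in stem cells and 26.4, 18.7 and 29.5 in interfollicular dermis. Every stem cell library lay above every papilla library, and these in turn above all 6 libraries of the other populations, which overlapped each other. Cxcl12 was lower in papilla than in stem cells (log2 fold change -1.87, SE 0.27, adjusted p = 0.00146), and it was lower in sheath than in stem cells (log2 fold change -3.72, SE 0.27, adjusted p = 1.27e-06). It was also higher in stem cells than in interfollicular dermis (3.58, adjusted p = 1.39e-06), higher in papilla than in sheath (1.85, adjusted p = 0.00016) and higher in papilla than in interfollicular dermis (1.71, adjusted p = 0.000407). Between sheath and interfollicular dermis the difference was -0.14, 95% interval -0.73 to 0.44, adjusted p = 0.867. The gene lies on chromosome 6 (GRCm38.p6, 117168535 to 117181368).

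Cxcr4, through which Cxcl12 retains cells in a niche, had its 3 highest values in stem cells. Cxcr4 had 17.1, 16.4 and 6.28 FPKM in papilla, 12.2, 10.8 and 10.3 in sheath, 71.02, 32.5 and 48.1 in stem cells and 4.93, 10.01 and 8.49 in interfollicular dermis. The stem cell libraries lay apart from the other 9, whose populations were close to each other. The gene was lower in papilla than in stem cells (log2 fold change -1.90, SE 0.38, adjusted p = 0.00905), and it was lower in sheath than in stem cells (log2 fold change -2.02, SE 0.38, adjusted p = 0.00101), and higher in stem cells than in interfollicular dermis (2.53, adjusted p = 0.000279). With the replicate block, a term for the replicate number, in the 6 libraries of papilla and stem cells, Cxcr4 had adjusted p = 0.0501. Cxcr4 lies on chromosome 1 (128588199 to 128592299). The call of papilla against stem cells also ended with these populations fitted alone (adjusted p = 0.0644). Leukocytes also express Cxcr4. Among the stem cell libraries replicate 1 was highest for both Cxcr4 and the macrophage markers described below, while replicate 2 was lowest for Cxcr4 and replicate 4 for the markers, and their part in the Cxcr4 level was not tested.

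Ackr3, the atypical receptor that takes up Cxcl12, was high in both papilla and stem cells. Ackr3 had 99.2, 71.4 and 44.8 FPKM in papilla, 17.02, 19.6 and 33.5 in sheath, 48.998, 57.3 and 64.9 in stem cells and 4.87, 4.76 and 6.24 in interfollicular dermis. Papilla and stem cells overlapped (0.26, 95% interval -0.39 to 0.92, adjusted p = 0.624), and both lay above sheath, which lay above interfollicular dermis. Ackr3 was lower in sheath than in stem cells (log2 fold change -1.30, SE 0.30, adjusted p = 0.00423), higher in papilla than in sheath (1.57, adjusted p = 0.00112) and higher in stem cells than in interfollicular dermis (3.21, adjusted p = 8.46e-06). It was the single member called between sheath and interfollicular dermis (log2 fold change 1.90, SE 0.30, adjusted p = 0.00672), and with the replicate block it had adjusted p = 0.0625 there.

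**Figure D2:**
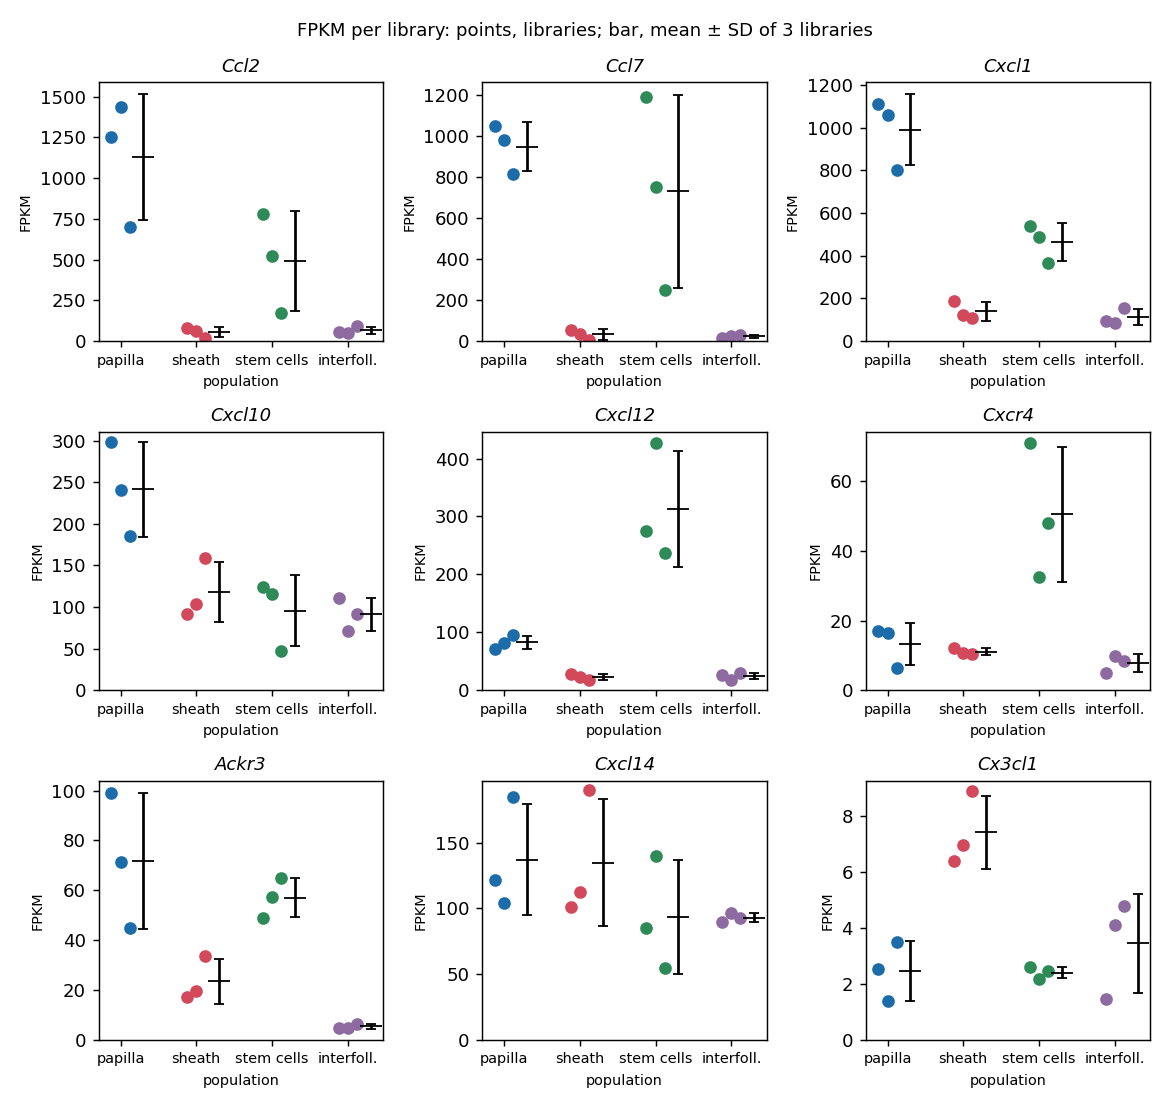
FPKM (y axis, linear from 0) of 9 members in the 4 populations (x axis), with 1 point per library and the mean ± SD of 3 libraries as a bar beside them. Cxcl12 and Cxcr4 stand highest in stem cells, Cxcl1 and Cxcl10 in papilla and Cx3cl1 in sheath, while the Cxcl14 points of the 4 populations lie between 54.2 and 190.2 FPKM.

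A group of inflammatory ligands had their highest means in papilla, and of these only Cxcl1 and Cxcl10 were called higher there than in stem cells. Cxcl1 had 1112, 1059.9 and 800.5 FPKM in papilla, 189, 119.9 and 108 in sheath, 540.5, 488 and 366 in stem cells and 94.6, 86.7 and 157 in interfollicular dermis. This neutrophil attractant, a ligand of Cxcr2, was higher in every papilla library than in any other library. It was higher in papilla than in stem cells (log2 fold change 1.09, SE 0.31, adjusted p = 0.0436), lower in sheath than in stem cells (-1.76, adjusted p = 0.000634) and higher in papilla than in sheath (2.85, adjusted p = 1.88e-05). The call between papilla and stem cells ended without any one of 9 libraries, namely papilla replicates 1 and 2, stem cells replicates 1, 2 and 4, sheath replicates 4 and 5 and interfollicular dermis replicates 1 and 2 (adjusted p = 0.0518 to 0.138). It also ended with a pseudocount of 0.1 (adjusted p = 0.0547), no filter on low values (adjusted p = 0.132), quantile normalization (adjusted p = 0.0794) and these populations fitted alone (adjusted p = 0.0943).

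Cxcl10, which interferon induces and which attracts T cells through Cxcr3, was also highest in papilla. Cxcl10 had 298, 241 and 185 FPKM in papilla, 91.5, 104 and 159 in sheath, 125, 116 and 47.1 in stem cells and 111, 71.5 and 91.7 in interfollicular dermis. No papilla library overlapped with any other library, while the other 3 populations overlapped. It was higher in papilla than in stem cells (log2 fold change 1.42, SE 0.36, adjusted p = 0.03), than in sheath (1.04, adjusted p = 0.0305) and than in interfollicular dermis (1.39, adjusted p = 0.00882). The call against stem cells ended without papilla replicate 1 (adjusted p = 0.096) or 2 (adjusted p = 0.0675) or stem cells replicate 4 (adjusted p = 0.0901), and the call against sheath without papilla replicate 1 (adjusted p = 0.104) or 2 (adjusted p = 0.0647) or sheath replicate 1 (adjusted p = 0.1) or 4 (adjusted p = 0.0832). With no filter on low values both calls ended (adjusted p = 0.0759 against stem cells and 0.0736 against sheath), as did the first with these populations fitted alone (adjusted p = 0.104) and the second with quantile normalization (adjusted p = 0.0756).

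Ccl2 and Ccl7, monocyte attractants that act through Ccr2, were, with Cxcl1, the leading members in papilla. Ccl2 had 1249.9, 1438 and 697 FPKM in papilla, 80.2, 62.8 and 20.4 in sheath, 780.0, 523 and 171 in stem cells and 57.1, 50.2 and 89.96 in interfollicular dermis. Ccl7 had 1049, 984 and 818 FPKM in papilla, 55.9, 36.5 and 4.67 in sheath, 1191, 755 and 247 in stem cells and 17.5, 24.01 and 31.2 in interfollicular dermis. For both genes papilla overlapped with stem cells, and every library of these populations lay above every library of the other 2. Ccl2 was lower in sheath than in stem cells (log2 fold change -3.10, SE 0.57, adjusted p = 0.000997) and higher in papilla than in sheath (4.49, adjusted p = 6.52e-05). The difference of Ccl2 between papilla and stem cells was 1.39, 95% interval 0.14 to 2.63, adjusted p = 0.155, and with the replicate block adjusted p = 0.0251. Ccl7 gave -4.73 for sheath against stem cells (adjusted p = 0.00027), 5.37 for papilla against sheath (adjusted p = 9.45e-05) and 0.64 for papilla against stem cells (adjusted p = 0.618).

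Ccl11, an eosinophil attractant that fibroblasts make, was steady within papilla and stem cells. Ccl11 had 37.7, 42.5 and 42.96 FPKM in papilla, 3.95, 5.10 and 3.38 in sheath, 22.3, 23.96 and 20.9 in stem cells and 0.894, 4.25 and 9.76 in interfollicular dermis. Papilla lay above stem cells in all libraries, but the difference was not called (0.85, 95% interval -0.13 to 1.83, adjusted p = 0.264). Under the replicate block it had adjusted p = 0.0882 in all 12 libraries and passed in the 6 libraries of these populations (adjusted p = 0.0479). Ccl11 was lower in sheath than in stem cells (log2 fold change -2.20, SE 0.45, adjusted p = 0.00196) and higher in papilla than in sheath (3.04, adjusted p = 0.000187).

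The other Cxcr2 ligands were Cxcl2, Cxcl3 and Cxcl5, all neutrophil attractants. Cxcl2 had 237, 211 and 164 FPKM in papilla, 63.8, 20.4 and 5.02 in sheath, 210.4, 156 and 54.9 in stem cells and 30.6, 45.2 and 52.7 in interfollicular dermis. Papilla and stem cells overlapped for Cxcl2, which was lower in sheath than in stem cells (log2 fold change -2.60, SE 0.68, adjusted p = 0.00855) and higher in papilla than in sheath (3.32, adjusted p = 0.00168). Cxcl3 had 21.3, 33.1 and 8.11 FPKM in papilla, 14.96, 8.07 and 2.09 in sheath, 7.9997, 12.2 and 5.95 in stem cells and 1.82, 3.83 and 10.9 in interfollicular dermis. It was called for papilla against interfollicular dermis alone (1.81, adjusted p = 0.0402), a call that ended without papilla replicate 1 (adjusted p = 0.102) or 2 (adjusted p = 0.139), sheath replicate 4 (adjusted p = 0.0507) or interfollicular dermis replicate 1 (adjusted p = 0.159) or 2 (adjusted p = 0.103). It also ended with no filter on low values (adjusted p = 0.101) and with libraries scaled to an equal sum (adjusted p = 0.0646). Cxcl5 had 1.68, 7.68 and 7.85 FPKM in papilla, 0.590, 2.28 and 0.611 in sheath, 0.773, 1.85 and 0.749 in stem cells and 0.656, 0.398 and 1.10 in interfollicular dermis. Cxcl5 was higher in papilla than in sheath (1.54, adjusted p = 0.0152) and than in interfollicular dermis (1.80, adjusted p = 0.00819), and with the replicate block the first had adjusted p = 0.0649. That first call also ended without papilla replicate 2 (adjusted p = 0.0596) or 4 (adjusted p = 0.0553) or sheath replicate 5 (adjusted p = 0.0576) or 1 (adjusted p = 0.0538), and with these populations fitted alone (adjusted p = 0.051). Of the 35-base stretches of Cxcl2 and Cxcl3, 7.0% and 5.1% also occur in another annotated gene, mainly in each other, so reads may be split between them.

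A second group of ligands, those typical of macrophages, varied widely among the libraries of a single population. Ccl8 had 374, 144 and 15.3 FPKM in papilla, 7.05, 2.68 and 1.25 in sheath, 2589, 519 and 19.4 in stem cells and 4.003, 4.14 and 6.58 in interfollicular dermis. Ccl12 had 29.4, 15.4 and 8.72 FPKM in papilla, 1.25, 0.122 and 0 in sheath, 129, 41.5 and 1.20 in stem cells and 0.119, 1.49 and 0.0448 in interfollicular dermis. Ccl24 had 11.5, 6.74 and 0.793 FPKM in papilla, 0.734, 0 and 0.0413 in sheath, 55.3, 39.1 and 1.69 in stem cells and 0.0992, 0.0365 and 0.0186 in interfollicular dermis. Stem cells replicate 1 was highest and replicate 4 lowest for all 3 genes, and in papilla too replicate 1 was highest and replicate 4 lowest. Ccl8 acts in mice on Ccr8, Ccl12 is a Ccr2 ligand of the mouse and Ccl24 attracts eosinophils through Ccr3.

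In stem cells the same held for Ccl3 and Ccl4, which attract monocytes and T cells, and for Ccl6 and Ccl9, mouse ligands of Ccr1. Ccl3 had 27.5, 21.6 and 23.2 FPKM in papilla, 8.11, 0.247 and 1.28 in sheath, 102, 42.7 and 1.89 in stem cells and 4.53, 7.08 and 9.15 in interfollicular dermis. Ccl4 had 42.9, 34.9 and 8.74 FPKM in papilla, 5.69, 0 and 0.646 in sheath, 211, 56.3 and 3.16 in stem cells and 1.65, 2.07 and 2.77 in interfollicular dermis. Within stem cells these 2 genes differed by over an order of magnitude between replicates 1 and 4. Ccl6 had 57.5, 51.7 and 24.2 FPKM in papilla, 17.3, 0.272 and 1.63 in sheath, 226, 104 and 8.75 in stem cells and 1.25, 2.42 and 3.63 in interfollicular dermis. Ccl9 had 37.8, 24.8 and 10.3 FPKM in papilla, 10.3, 0.997 and 0.372 in sheath, 133, 46.1 and 3.38 in stem cells and 0.510, 1.94 and 4.22 in interfollicular dermis. Replicate 1 was again highest in stem cells, and also in sheath, where it is the library with the extra letter in its title and the most immune markers.

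The second group was introduced by its wide spread, so the spread within stem cells describes the members and does not test that grouping. The highest library exceeded the lowest 139.9-fold for Ccr1, 133-fold for Ccl8, 107-fold for Ccl12, 66.8-fold for Ccl4, 54.1-fold for Ccl3, 39.3-fold for Ccl9, 32.7-fold for Ccl24 and 25.8-fold for Ccl6. These were the 8 of 26 members with at least a 10-fold spread there, and 6 members spread less than 2-fold, among them Ccl11 (1.15-fold), Ackr3 (1.32-fold), Cxcl13 (1.44-fold), Cxcl1 (1.48-fold) and Cxcl12 (1.80-fold). Ccl2 (4.57-fold), Ccl7 (4.82-fold) and Cxcl2 (3.83-fold) lay between these limits. They too were highest in replicate 1 and lowest in replicate 4 of stem cells. In stem cells 21 of the 26 members were lowest in replicate 4, and in papilla 18 of the 26 were lowest in replicate 4. The share of all entries that were lowest there was not counted, so whether these counts are particular to the family is not known. Replicate 4 also had the lowest total of all FPKM in both populations (232672 in stem cells and 206055 in papilla).

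In stem cells macrophage and pan-leukocyte markers followed the library order of the second group, while the other immune lists given below peaked in replicate 2. The 14 macrophage markers found in the table, of 15 listed, summed to 746, 339 and 154 FPKM in papilla, 121, 32.6 and 29.2 in sheath, 3529, 1362 and 121 in stem cells and 36.1, 45.8 and 77.5 in interfollicular dermis. In stem cells this was a 29.2-fold spread, beside a 32.4-fold spread of the 10 pan-leukocyte markers (29.7 to 964 FPKM) and a 1.37-fold spread of the 10 fibroblast markers. Not one of the macrophage or pan-leukocyte markers found was listed at 0 in all 3 libraries of any population, and of the macrophage markers 12 of 14 were lower in sheath than in stem cells, against 19.6% of all entries. The complement gene C1qa, made by macrophages, had 628, 235 and 12.98 FPKM in stem cells. The part of these cells in the values of the second group was not tested, and in bulk samples fewer cells of a type and less RNA per cell cannot be told apart. Markers of other cells also moved among the stem cell libraries, in more than 1 direction. Papilla markers (346, 304 and 659 FPKM) and fibroblast markers were highest in replicate 4, and keratinocyte markers (716, 1361 and 718 FPKM) lowest in replicate 1. The lists that follow were lowest in replicate 4. In stem cells the 11 mast cell and neutrophil markers found summed to 96.6, 276 and 3.27 FPKM, the 10 dendritic and Langerhans cell markers to 551, 647 and 59.98, the 11 endothelial markers to 164, 99.8 and 30.1, and the 8 melanocyte markers to 70.4, 92.7 and 17.2. Of the 12 T cell markers found, Thy1, which fibroblasts also express, made up most of the sum, and the other 11 summed to 10.8, 19.1 and 2.24 FPKM. Their part in the values was likewise not tested.

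**Figure D3:**
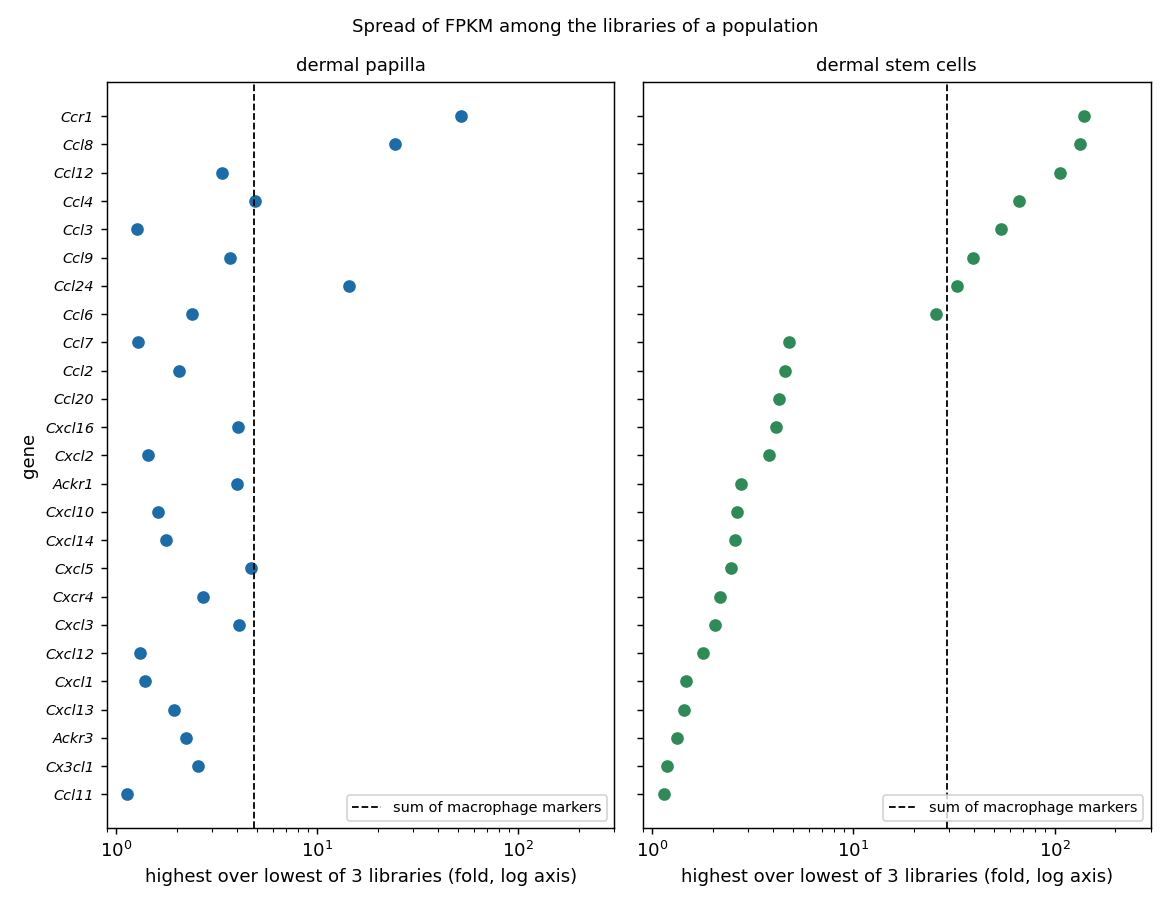
Highest over lowest FPKM among the 3 libraries of papilla (left) and stem cells (right) for 25 members in which no stem cell library is at 0, on a log axis, with the same ratio for the summed macrophage markers as a dashed line. Ccr1 and 7 CC ligands lie near or beyond the line in stem cells, and Ccl20, at 0 in a papilla library, has no point on the left.

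Genes of the second group passed in several comparisons. Ccl8 was lower in sheath than in stem cells (log2 fold change -6.22, SE 1.43, adjusted p = 0.00388) and higher in stem cells than in interfollicular dermis (5.70, adjusted p = 0.0077). Ccl12, Ccl24, Ccl3, Ccl4, Ccl6 and Ccl9 were also called for sheath against stem cells (-4.08, -3.91, -2.99, -4.05, -3.96 and -3.27). Without stem cells replicates 1 and 2 all 7 of these calls ended, with adjusted p of 0.217 for Ccl8 and 0.365 to 0.982 for the others, as did that of Ccl8 for stem cells against interfollicular dermis (adjusted p = 0.36). Between papilla and stem cells none of the 7 was called, with log2 fold changes of -1.71 for Ccl24 and 0.09 for Ccl3, and the interval of Ccl8 was wide (-1.65, 95% interval -4.74 to 1.44, adjusted p = 0.505). Single libraries ended other calls of this group for sheath against stem cells: Ccl3 (adjusted p = 0.0863 to 0.145) and Ccl9 (adjusted p = 0.0802 to 0.122) without stem cells replicate 1 or 2 or sheath replicate 4 or 5, and Ccl4 without stem cells replicate 1 (adjusted p = 0.054) or sheath replicate 4 (adjusted p = 0.0506). The calls of Ccl3 and Ccl9 also ended with no filter on low values (adjusted p = 0.0901 and 0.0785) and with these populations fitted alone (adjusted p = 0.0928 and 0.0667).

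Cxcl13, the B cell attractant of lymphoid follicles, was measured mainly in papilla and stem cells. Cxcl13 had 16.01, 8.31 and 16.1 FPKM in papilla, 0.105, 0 and 0 in sheath, 12.5, 8.73 and 12.6 in stem cells and 0.165, 0 and 1.20 in interfollicular dermis. It was at or near 0 in sheath and interfollicular dermis and overlapped between the other 2 populations (0.20, 95% interval -0.54 to 0.95, adjusted p = 0.757). Levels were lower in sheath than in stem cells (log2 fold change -3.55, SE 0.34, adjusted p = 1.01e-05) and higher in stem cells than in interfollicular dermis (3.15, adjusted p = 2.63e-05). Its receptor gene Cxcr5 reached at most 2.68 FPKM in any library.

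Cx3cl1, the membrane-bound chemokine fractalkine, was, among the ligands with a population mean of at least 5 FPKM, the one with its highest mean in sheath. Cx3cl1 had 2.53, 1.37 and 3.51 FPKM in papilla, 6.40, 6.95 and 8.88 in sheath, 2.58, 2.17 and 2.45 in stem cells and 1.44, 4.10 and 4.78 in interfollicular dermis. The sheath libraries lay above all others. It was higher in sheath than in stem cells (log2 fold change 1.30, SE 0.35, adjusted p = 0.00921), and it was lower in papilla than in sheath (-1.32, adjusted p = 0.00736), while sheath against interfollicular dermis gave 1.004, 95% interval 0.25 to 1.75, adjusted p = 0.173. Its receptor gene Cx3cr1, a marker of some macrophages, was at most 0.486 FPKM.

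Cxcl14, a homeostatic chemokine of epithelia and fibroblasts, was high in all 12 libraries. Cxcl14 had 122, 105 and 185 FPKM in papilla, 101, 112 and 190.2 in sheath, 85.3, 140.0 and 54.2 in stem cells and 89.5, 96.3 and 92.7 in interfollicular dermis. Papilla and sheath each lay just above interfollicular dermis and the other pairs overlapped, and limma called no pairwise comparison (F test adjusted p = 0.271). With quantile normalization sheath against stem cells passed (adjusted p = 0.0379). The widest pairwise difference was 0.61, 95% interval -0.14 to 1.36, adjusted p = 0.29 for papilla against stem cells.

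Cxcl16, a transmembrane chemokine for Cxcr6, was lowest in sheath by mean. Cxcl16 had 79.3, 54.7 and 19.6 FPKM in papilla, 13.9, 5.43 and 9.55 in sheath, 28.2, 24.8 and 6.83 in stem cells and 35.4, 27.4 and 43.5 in interfollicular dermis. It was called for papilla against sheath alone (log2 fold change 2.17, SE 0.55, adjusted p = 0.00585), and with the replicate block it also passed for papilla against stem cells (adjusted p = 0.00662), sheath against stem cells (adjusted p = 0.0498) and papilla against interfollicular dermis (adjusted p = 0.0101). Cxcr6 was highest in interfollicular dermis, at 2.60, 0.720 and 4.68 FPKM, and was not tested.

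Ccl27a and Ccl20 are chemokines of keratinocytes that attract T cells through Ccr10 and Ccr6. Ccl27a had 3.57, 3.94 and 0 FPKM in papilla, 0, 0 and 2.45 in sheath, 0, 0 and 0 in stem cells and 5.998, 3.83 and 2.61 in interfollicular dermis. Ccl27a was lower in stem cells, where all 3 libraries listed 0, than in interfollicular dermis (adjusted p = 0.00972), and 54.0% of its 35-base stretches also occur in another annotated gene, so its reads may be shared. Ccl20 had 3.48, 14.6 and 0 FPKM in papilla, 0.115, 0.326 and 2.07 in sheath, 1.40, 5.95 and 1.80 in stem cells and 12.9, 4.88 and 0.842 in interfollicular dermis. Its libraries overlapped in all comparisons and it was not called in any, although papilla against sheath passed without papilla replicate 4, which listed 0 (adjusted p = 0.0318). Keratinocyte markers summed to 1209.9 to 3466 FPKM in papilla, 1293 to 1601 in sheath, 716 to 1361 in stem cells and 1453 to 1925 in interfollicular dermis, and their part in the Ccl27a and Ccl20 values was not tested.

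Besides Cxcr4, Ccr1 alone among the signalling receptor genes reached a population mean of 5 FPKM. Ccr1 had 9.36, 3.999 and 0.181 FPKM in papilla, 2.31, 0.0230 and 0 in sheath, 31.9, 7.79 and 0.228 in stem cells and 0.452, 0.565 and 1.83 in interfollicular dermis. Ccr1, the receptor of Ccl3, Ccl6 and Ccl9 on monocytes and macrophages, followed the macrophage order in stem cells and was not called (for sheath against stem cells, -2.24, 95% interval -4.46 to -0.02, adjusted p = 0.0949). With the replicate block it passed for stem cells against interfollicular dermis (adjusted p = 0.00379) and papilla against interfollicular dermis (adjusted p = 0.0148). Ccr2 had 2.31, 3.23 and 2.99 FPKM in papilla, 2.06, 0.399 and 0.267 in sheath, 5.51, 3.28 and 0.221 in stem cells and 0.125, 0.812 and 1.57 in interfollicular dermis. Ccr2, which binds Ccl2 and Ccl7 on monocytes, was not called, and within stem cells it was lowest in replicate 4. With the replicate block it passed for papilla against interfollicular dermis (adjusted p = 0.0268).

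Receptors for several abundant ligands were scarcely detected. Cxcr2, the receptor of Cxcl1, reached 1.04 FPKM at most, and Cxcr3, the receptor of Cxcl10, had 0.276, 0 and 0 FPKM in papilla and 4.80, 2.13 and 0.401 in stem cells. The Ccl11 receptor gene Ccr3 was at most 0.781 FPKM and Ccr10 at most 0.752. Ccr8, a receptor of Ccl8 in mice, had 0.885, 0.813 and 0.935 FPKM in interfollicular dermis and was listed at 0 in the papilla and stem cell libraries. The 18 untested members above 0 peaked between 0.0144 and 4.80 FPKM, and 6 symbols (Ccl19, Ccl21a, Ccl21b, Ccl21c, Ccl26 and Ccl27b) were listed at 0 throughout. An exact 0 in this table can be a failed estimate, and Ccl21b and Ccl27b share all of their 35-base stretches with other genes.

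The other atypical receptors were higher in papilla than in sheath. Ackr1 had 22.7, 35.9 and 8.96 FPKM in papilla, 4.38, 4.11 and 1.33 in sheath, 16.3, 22.3 and 8.06 in stem cells and 0.166, 5.08 and 8.21 in interfollicular dermis. Ackr1, which binds many chemokines on venular endothelium, was higher in papilla than in sheath (log2 fold change 2.36, SE 0.70, adjusted p = 0.0141), and it was lower in sheath than in stem cells (-1.94, adjusted p = 0.0393), and with the replicate block the second had adjusted p = 0.0846. Of the 35-base stretches of Ackr1, 22.46% also occur in another annotated gene, mainly Cadm3, so reads of the 2 may not be told apart. The first call ended without papilla replicate 2 (adjusted p = 0.0576) or sheath replicate 5 (adjusted p = 0.0612), and the second without stem cells replicate 1 (adjusted p = 0.098) or 2 (adjusted p = 0.125) or any sheath library (adjusted p = 0.0522 to 0.14). With a pseudocount of 0.1 both ended (adjusted p = 0.0503 and 0.105), and the second also with no filter on low values (adjusted p = 0.103) and with libraries scaled to an equal sum (adjusted p = 0.116). The 11 endothelial markers, none of them at 0 in all 3 libraries of a population, summed to 109, 152 and 15.5 FPKM in papilla, 40.3, 64.02 and 17.4 in sheath, 164, 99.8 and 30.1 in stem cells and 41.01, 63.8 and 126 in interfollicular dermis. In papilla their order by library was that of Ackr1, and in stem cells both were lowest in replicate 4. Their part in the Ackr1 values was not tested.

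Ackr2 had 6.47, 1.94 and 2.22 FPKM in papilla, 0.0316, 0.0225 and 0 in sheath, 0.0340, 0.351 and 0.633 in stem cells and 0.0882, 1.25 and 1.33 in interfollicular dermis. Ackr2, a scavenger of inflammatory CC chemokines such as Ccl2, was higher in papilla than in stem cells (log2 fold change 1.65, SE 0.40, adjusted p = 0.0232) and than in sheath (2.02, adjusted p = 0.00124). The papilla libraries all lay above every other library. The call against stem cells ended without papilla replicate 1 (adjusted p = 0.0733) or stem cells replicate 1 (adjusted p = 0.0991) or 2 (adjusted p = 0.0676). It also ended with a pseudocount of 0.1 (adjusted p = 0.0672), libraries scaled to an equal sum (adjusted p = 0.0527) and these populations fitted alone (adjusted p = 0.0794). Ackr4 had 5.40, 5.93 and 8.04 FPKM in papilla, 2.19, 0 and 3.64 in sheath, 1.68, 3.09 and 0 in stem cells and 3.31, 2.39 and 3.61 in interfollicular dermis. Ackr4, which takes up Ccl19, Ccl21 and Ccl25, was called for papilla against sheath (log2 fold change 1.59, SE 0.56, adjusted p = 0.0322), a call that ended without any papilla library or sheath replicate 4 (adjusted p = 0.0543 to 0.143). It also ended with a pseudocount of 0.1 (adjusted p = 0.106), no filter on low values (adjusted p = 0.0858) and libraries scaled to an equal sum (adjusted p = 0.0824). Ackr4 passed for papilla against stem cells with the replicate block (adjusted p = 0.0479).

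Papilla and stem cells were compared as labelled, although their papilla markers overlapped (384 to 2088 FPKM in papilla and 304 to 659 in stem cells). Cxcl1, Cxcl10 and Ackr2 were higher in papilla, and Cxcl12 and Cxcr4 lower. These were 3 of 35 members higher, against 2.31% of all entries, and 2 lower, against 6.38%. With the replicate block in all 12 libraries 9 passed, 7 of them higher, with Ackr4, Ccl2, Cxcl3 and Cxcl16 added. The calls over all entries rose there from 1110 to 1334. With the block in the 6 libraries of the 2 populations 4 members and 658 of all entries passed. There Ccl11 (adjusted p = 0.0479) and Cxcl16 (adjusted p = 0.0238) were added. Ackr2 (adjusted p = 0.0947), Cxcl1 (adjusted p = 0.0536) and Cxcr4 (adjusted p = 0.0501) were lost. The median log2 fold change was 0.26 over the members and -0.25 over all entries. Among all calls 26.6% were higher, and 46.7% with median-of-ratios scaling and 51.4% with quantile normalization. Melanocyte markers (8 genes) summed to 206 to 837 FPKM in papilla, against 17.2 to 92.7 in stem cells, with no gene at 0 in all 3 libraries of either population, and their part in these differences was not tested. Without stem cells replicates 1 and 2 fewer members and fewer of all entries were called, and the lone remaining library was taken to vary like the other populations. Cxcl12 then had a log2 fold change of -1.51 (adjusted p = 0.0787), and Cxcr4 of -1.90 (adjusted p = 0.119).

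**Figure D4:**
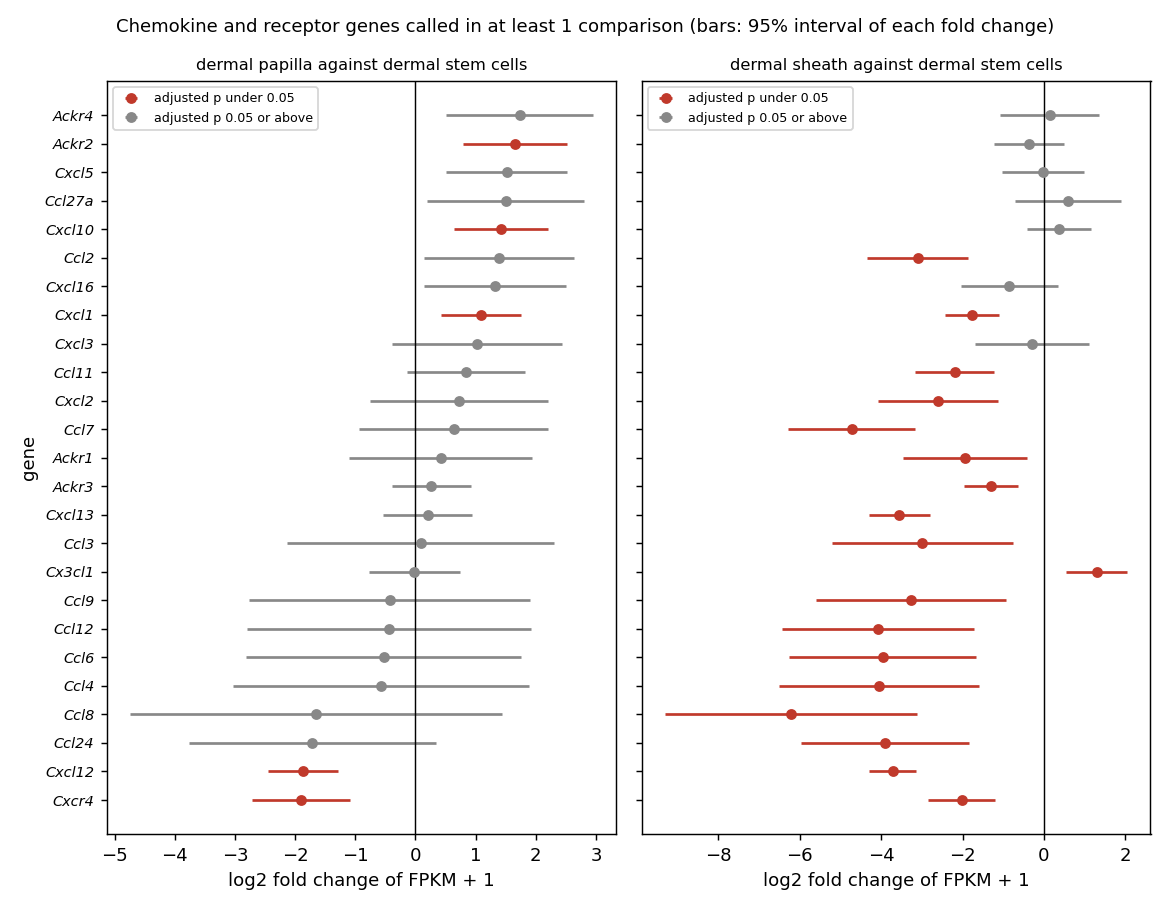
Log2 fold change of FPKM + 1 with its 95% interval for the 25 members called in at least 1 of the 6 comparisons (y axis), for papilla against stem cells (left) and sheath against stem cells (right), with red points at an adjusted p under 0.05. On the left Cxcl12 and Cxcr4 are the lowest called points, and on the right 17 of the 18 called members lie below 0, with Cx3cl1 above it.

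In the comparison of sheath with stem cells most called members were lower in sheath. Cx3cl1 was the 1 member called higher, against 24.3% of all entries. The 17 called lower, against 19.6% of all entries, were Cxcl1, Cxcl2, Cxcl12, Cxcl13, Ccl2 to Ccl4, Ccl6 to Ccl9, Ccl11, Ccl12, Ccl24, Cxcr4, Ackr1 and Ackr3. The median over the members was -1.30 and over all entries 0.13. Higher calls made up 55.4% of all calls, 65.7% when libraries were scaled to an equal sum and 44.8% with median-of-ratios scaling. Without stem cells replicates 1 and 2 fewer members were called, all of them lower, and fewer of all entries were called too. Among the calls that ended were those of Ccl2 (adjusted p = 0.076), Ccl11 (adjusted p = 0.0526), Cxcl2 (adjusted p = 0.283) and Cx3cl1 (adjusted p = 0.119).

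In the comparison of papilla with sheath the papilla was higher for most of the family. Of the members 20 were higher, against 16.4% of all entries, and Cx3cl1 was lower, against 33.4%. The median over the members was 1.59 and over all entries -0.36. The members' calls numbered 21 in all, and 14 to 25 when each of the 12 libraries was left out in turn. Over all entries the calls numbered 6365, and 5105 to 6462 with a library left out. With no filter on low values the calls of Ccl3, Ccl4, Ccl6, Ccl8 and Ccl9 ended (adjusted p = 0.0551 to 0.115). Without sheath replicate 1 the count of members was again 21, and for sheath against stem cells it was 17, beside 5756 and 4870 over all entries. Higher calls were 32.9% of all calls, 51.9% with median-of-ratios scaling and 43.4% with quantile normalization.

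Stem cells and papilla both exceeded interfollicular dermis for much of the family. Of the members 15 were higher in stem cells than in interfollicular dermis, against 17.9% of all entries, and Ccl27a was lower, against 19.7%. Without stem cells replicates 1 and 2 fewer members and fewer of all entries were called, and the call of Ccl27a ended. With the replicate block Ccl3, Ccr1, Cxcl2 and Cxcl3 were added (adjusted p = 0.0432, 0.00379, 0.00186 and 0.00202). In papilla 18 were higher than in interfollicular dermis, against 13.7% of all entries, and 0 were lower by limma, against 28.6%, with 0 lower also at an unadjusted p under 0.05. The count of 18 was 10 without papilla replicate 1 and 9 without interfollicular dermis replicate 1. Over all entries the calls fell from 5400 to 4600 and 4319 in the same order. With the block Ccl3 (adjusted p = 0.0348) and Ccl24 (adjusted p = 0.00446) passed and Ackr2 did not (adjusted p = 0.0543). Higher calls were 47.6% of all calls for stem cells and 33.2% when libraries were scaled to an equal sum, and 32.3% for papilla, 52.7% with median-of-ratios scaling and 44.7% with quantile normalization. With no filter on low values Ackr1, Ccl4 and Ccl9 were lost for stem cells (adjusted p = 0.0758 to 0.114), and Ackr1, Ackr2, Ccl4, Ccl8, Ccl9, Ccl12, Cxcl2 and Cxcl3 for papilla (adjusted p = 0.0513 to 0.126). These 2 comparisons share their interfollicular dermis libraries.

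Few members were called between sheath and interfollicular dermis. Ackr3 was the 1 member higher in sheath, against 0.939% of all entries. By limma 0 members were lower, against 1.32%, and 4 (Ccl27a, Cxcl9, Cxcl16 and Cxcr5) were lower at an unadjusted p under 0.05. With the replicate block Cxcl3 passed (adjusted p = 0.0157), in a fit to which sheath replicate 5 and interfollicular dermis replicate 6 add nothing here.

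Genes around the family were counted in lists chosen with results of these data known. Of 34 cytokine and NF-kB genes, 17 were higher (against 16.4% of all entries) and 0 lower (against 33.4%) in papilla than in sheath. Of the same genes 1 was higher (24.3%) and 13 lower (19.6%) in sheath than in stem cells, and 1 was higher (2.31%) and 0 lower (6.38%) in papilla than in stem cells. Their median log2 fold changes were 0.88, -0.65 and 0.08, beside -0.36, 0.13 and -0.25 over all entries. Il6 had 341, 714 and 419.9 FPKM in papilla, 104, 52.6 and 17.6 in sheath, 163, 186 and 113 in stem cells and 20.4, 27.2 and 79.7 in interfollicular dermis. Il6, an inflammatory cytokine, was higher in papilla than in sheath (3.31, adjusted p = 0.000646) and was not called against stem cells (1.62, adjusted p = 0.108). Cebpd, a transcription factor of the inflammatory response, gave 2.75 for papilla against sheath (adjusted p = 3.15e-05), and the interleukin receptor gene Il4ra 2.23 (adjusted p = 0.00851).

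Among 23 tested genes of chemokine processing and presentation, 12 were lower (19.6% of all entries) and 3 higher (24.3%) in sheath than in stem cells, with a median of -0.60 beside 0.13 over all entries. In papilla against stem cells 3 were lower (6.38%) and 1 higher (2.31%), with a median of -0.51 beside -0.25, counts that are small and near the background. Mmp2, a protease that cleaves Cxcl12, gave -4.50 for sheath against stem cells (adjusted p = 3.04e-05), the protease gene Mmp3 -1.81 (adjusted p = 0.0212) and the lysosomal protease gene Ctsl -3.01 (adjusted p = 1.36e-05). Of 28 tested receptor signalling genes, 1 was higher (2.31% of all entries) and 3 lower (6.38%) in papilla than in stem cells, shares close to the background, with a median of -0.34 beside -0.25 over all entries. Gnai1, a G protein subunit below these receptors, was higher in papilla (1.97, adjusted p = 0.00709), and Grk5, a kinase that switches receptors off, was lower (-1.48, adjusted p = 0.0286). Ptk2b, a kinase activated by chemokine receptors, was lower in papilla than in sheath (-2.08, adjusted p = 0.00267).

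Of 11 tested relatives outside the symbol patterns, 1 was higher (2.31% of all entries) and 2 lower (6.38%) in papilla than in stem cells, with a median of -0.90 beside -0.25 over all entries. Pf4 had 99.1, 57.4 and 23.1 FPKM in papilla, 9.08, 0.554 and 0.543 in sheath, 465, 240.4 and 15.1 in stem cells and 0.870, 0.800 and 0.939 in interfollicular dermis. Pf4, a CXC chemokine of platelets and macrophages, was highest in replicate 1 and lowest in replicate 4 of stem cells, like Ccl8. Cmklr1 had 5.08, 5.93 and 6.50 FPKM in papilla, 0.890, 0.344 and 0.880 in sheath, 26.03, 19.6 and 26.995 in stem cells and 0.270, 0.347 and 2.19 in interfollicular dermis. Cmklr1, the receptor of the chemoattractant chemerin, was lower in papilla than in stem cells (-1.88, adjusted p = 0.00614) and varied little among the stem cell libraries. Rarres2, which encodes chemerin, averaged 176 FPKM in papilla and 89.4 in stem cells (log2 fold change 0.96, adjusted p = 0.24). Of 9 tested genes of the list around Cxcl12 and hypoxia, 4 were lower (19.6% of all entries) and 0 higher (24.3%) in sheath than in stem cells, with a median of -1.05 beside 0.13 over all entries. Among the 4 were Lepr, the leptin receptor (-4.03, adjusted p = 8.21e-05), and Csf1, a macrophage growth factor (-2.08, adjusted p = 0.000805). Foxc1, a transcription factor of Cxcl12-rich bone marrow stroma, was not called in that comparison (0.32, adjusted p = 0.45).

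Many members are neighbours in the genome, and neighbours did not always share a pattern. On chromosome 11 (GRCm38.p6, 82035577 to 82179812) Ccl2, Ccl7, Ccl11, Ccl12, Ccl8 and Ccl1 lie side by side. Within stem cells Ccl8 and Ccl12 spread 133-fold and 107-fold, while Ccl11, between Ccl7 and Ccl12, spread 1.15-fold. The next cluster on chromosome 11 (83525778 to 83664683) holds Ccl5, Ccl9, Ccl6, Ccl3 and Ccl4, of which all but Ccl5 had a population mean of at least 5 FPKM. On chromosome 5 (90759298 to 90905938) lie Cxcl5, Cxcl3, Cxcl15, Cxcl1 and Cxcl2, and Cxcl10 lies farther along between Cxcl9 and Cxcl11 (92321331 to 92363296). Cxcl9 and Cxcl11 peaked at 3.78 and 1.36 FPKM, both in papilla, against 298 FPKM for Cxcl10.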

How the data were processed

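Polyadenylated RNA of sorted cells was sequenced as SOLiD libraries, per the labels' protocols, and the deposited file gives the authors' FPKM for each library as a column. The submitters' processing notes name TopHat2 2.0.13, SAMtools, Cufflinks 2.2.1 and the mm10 build, and the annotation is not given in the sources used here. FPKM are not counts, so a count model was not used and no counting interval is given. Relative depth, read from genes under 0.3 FPKM, was 0.633 to 1.95 against dermal stem cells replicate 2.

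The test covered 12774 entries that reached 1 FPKM in 3 or more libraries. Using limma 3.58.1 (R 4.3.3), the 4 population means were fitted to log2(FPKM + 1), and variances were moderated towards a trend in mean level (8 residual and 4.61 prior degrees of freedom). All tests were two-sided, with Benjamini-Hochberg adjustment over all tested entries and a threshold of 0.05. The procedure was checked on simulated data.

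The members, the 18 gene lists and the alternatives were chosen with earlier results of these data known. Members with a population mean of at least 5 FPKM are given by library, others by range or where they are a ligand or receptor of such a member or were called. The values of 1 tested member are not reported here. Of each other list up to 3 genes with the largest fold change among those past the F test could be named. Dermal papilla and dermal stem cells share the numbers 1, 2 and 4. Deviations of same-numbered libraries from their population means correlated across genes at 0.306, 0.241 and 0.389, and those of unlike numbers at -0.333 to 0.125. The numbers may thus pair the samples, though the labels do not say what they mark. The main fit left this possible pairing out, and the block is given beside it as an alternative. The block over all 12 libraries counts the dermal sheath library whose title has an extra letter as number 1. In it dermal sheath replicate 5 and interfollicular dermis replicate 6 have numbers that no other library has, so neither adds to the comparisons. Shared deviations were looked at between dermal papilla and dermal stem cells only. Genes are not independent replicates in these values.

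Alternatives were another pseudocount (0.1), no filter on low values, a minimum of 5 FPKM, 3 scalings between libraries, the replicate number as a block, fits of 2 populations alone, each library left out in turn and, chosen after seeing the data, the omission of dermal stem cells replicates 1 and 2. Positions and upstream windows (250 bases before and 50 after a start, of which the first part was searched) are from RefSeq GRCm38.p6, matched for 60 entries by Entrez identifier. Stretches of 35 bases shared with other genes were counted in GENCODE transcripts.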

Additional observations from a re-analysis of the deposited data

How the results depend on the processing

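The number of members called for dermal papilla against dermal stem cells, 5 as reported, was 3 with a pseudocount of 0.1 and 9 with the replicate block. It was 2 when these populations were fitted alone and 3 to 7 when each library was left out in turn. Calls over all entries numbered 1110 in the main fit, 828 with that pseudocount, 1334 with the block and 512 with these populations alone. With a library left out they numbered 465 to 1377. For dermal sheath against interfollicular dermis the count of 1 was 2 with no filter on low values and 2 with these populations alone. Over all entries that count was 289 in the main fit, 203 with no filter and 239 with these populations alone. Without dermal stem cells replicates 1 and 2 the count of 18 for dermal sheath against dermal stem cells was 6, and the count of 16 for dermal stem cells against interfollicular dermis was 7. Leaving out each library gave 9 to 21 for dermal papilla against interfollicular dermis, where 18 were reported, and 20 to 26 for the F test, where 23 were reported. Over all entries these were 4208 to 5324, beside 5400 in the main fit, and 6309 to 7459, beside 7256. Ccl3 reversed for dermal sheath against dermal stem cells without dermal stem cells replicates 1 and 2 (log2 fold change 0.037, adjusted p = 0.982), and the cause was not tested. As a background, the main fit called 6365 of the 12774 tested entries between dermal papilla and dermal sheath. It called 5607 when dermal sheath was set beside dermal stem cells, and 4800 when dermal stem cells were set beside interfollicular dermis. The remaining comparisons had the 1110, 5400 and 289 calls given above. A share of entries over all comparisons together was not counted, so the member total that follows is not shown to exceed it. Of 210 pairs of member and comparison 79 were called. Over their 1658 alternative values, 1460 kept the call, 197 ended it and 1 reversed, and 32 pairs were called under every alternative. The block changed no call of the named members other than those given beside the results. The number of reads behind each value is unknown, which limits what can be said of members near 1 FPKM.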
